A study of Mus musculus with 6 samples.

Results

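The 10 members described here are the genes of the mouse cytochrome P450 4 (CYP4) family named in a list of fatty acid hydroxylases, matched by gene symbol in the deposited table of 23282 genes. They are Cyp4a10, Cyp4a12a, Cyp4a12b, Cyp4a14, Cyp4a31 and Cyp4a32 of subfamily 4A, Cyp4f13, Cyp4f14 and Cyp4f15 of subfamily 4F, and Cyp4v3 of subfamily 4V. All 10 were found. The samples were primary hepatocytes from collagenase-perfused livers of mice labelled C57BL6/N, plated and then kept for 24 h with no treatment in 3 samples (control) and with IL-1β recombinant protein in the other 3. The dose, the sex and age of the mice and the number of animals behind the 6 samples are not given in the labels, and the labels do not say whether samples of a group came from separate livers or from wells of one preparation. The series title speaks of metabolically stressed cells, while its design text describes only isolation, plating and IL-1β. RNA was sequenced by QuantSeq, which primes on the poly(A) tail and reads 75 nt near the 3′ end of each mRNA, so that a count stands for one transcript end and does not grow with transcript length.

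CYP4 enzymes sit in the endoplasmic reticulum and add a hydroxyl group to the last carbon of a fatty acid chain, the omega position, which is the first step towards dicarboxylic acids that peroxisomes shorten. CYP4A enzymes act mainly on medium- and long-chain fatty acids, and the CYP4A12 enzymes of the mouse also turn arachidonic acid into the vasoactive lipid 20-HETE. CYP4F enzymes hydroxylate leukotrienes and very long-chain fatty acids, and Cyp4v3 is the mouse counterpart of CYP4V2, the gene mutated in Bietti crystalline dystrophy of the retina. In liver, Cyp4a10 and Cyp4a14 are textbook targets of the fatty acid receptor PPARα, and the Cyp4a12 genes are known for their higher expression in males, under growth hormone and androgen.

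Every P450 holds its heme iron through 1 cysteine near the end of the protein, and the bases that encode the surrounding signature show how closely the members are related. The 30 coding bases of that signature are shown, read from the GRCm38 genome with the GENCODE gene models, 5′ to 3′ on the coding strand, with the cysteine codon in capitals. The coordinates run over an intron that splits each of these runs, and each coding sequence held 1 match to the signature.
Cyp4a10 (chr4:115529502-115532543, + strand): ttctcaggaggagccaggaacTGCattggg
Cyp4a12a (chr4:115328986-115331846, + strand): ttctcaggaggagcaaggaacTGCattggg
Cyp4a14 (chr4:115487299-115489805, - strand): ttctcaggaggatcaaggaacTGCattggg
Cyp4f13 (chr17:32924942-32925340, - strand): ttctcagcggggaccaggaacTGCatagga
Cyp4f14 (chr17:32905666-32906065, - strand): ttctcggcgggacccaggaacTGCatagga
Cyp4f15 (chr17:32702398-32702801, + strand): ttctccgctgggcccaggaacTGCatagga
Cyp4v3 (chr8:45307107-45308407, - strand): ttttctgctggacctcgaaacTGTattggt

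Cyp4a31 and Cyp4a32 carried the same 30 bases as Cyp4a10, and Cyp4a12b the same as Cyp4a12a. Cyp4a10 and Cyp4a12a differed at 1 base, any pair of the CYP4F genes at 3, and Cyp4v3 differed from Cyp4f13 at 11. Over the whole coding sequence, Cyp4a12a and Cyp4a12b shared 98.5% of aligned bases, with 23 differences in 1524. Cyp4a10 shared 97.2% with Cyp4a32 and 96.6% with Cyp4a31, whereas Cyp4a14 shared 75.6% with Cyp4a12a and 76.1% with Cyp4a10. Cyp4f14 shared 82.1% with Cyp4f15 and 78.3% with Cyp4f13, and Cyp4v3 stood farthest off, at 51.9% with Cyp4f14.

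The members lie in 2 clusters and 1 single locus on GRCm38, with positions as the deposited table gives them. The 6 Cyp4a genes fall within 323 kb of chromosome 4, from 115299046 to 115622366. The 3 Cyp4f genes fall within 262 kb of chromosome 17, from 32685659 to 32947361, and Cyp4v3 lies alone on the minus strand of chromosome 8, from 45305802 to 45333196. In the annotation, Gm12837 overlaps Cyp4a12b on the opposite strand, and Gm45753 overlaps the last exon of Cyp4v3 on the same strand. How much of that exon the Gm45753 transcript covers was not measured. The search of transcript ends below found no stretch of Cyp4v3 in a transcript of another gene.

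Near-identical copies matter for these counts, since the way reads that match several genes were counted is not given in the sources used here. Every 75-nt window in the last 500 nt of each member's longest annotated protein-coding transcript was searched in the transcripts of other genes. In Cyp4a12a and Cyp4a12b, 139 of 426 windows (32.6%) were found in the other gene of the pair. The same share was 55.2% in Cyp4a32, whose annotated transcript of 1530 nt is little more than its coding sequence, and 0.469% in Cyp4a10 and in Cyp4a31. In Cyp4a14, the CYP4F genes and Cyp4v3 it was 0, with the limit given above for Cyp4v3. The annotation ends Cyp4a32, on the + strand, at 115621602, while the deposited table ends it at 115622366. Its windows may thus lie upstream of the end that was read, so its share is not directly comparable with the others. The division of reads between Cyp4a12a and Cyp4a12b, and the few reads of Cyp4a32, are therefore uncertain. The 60 bases of exon 6 where the Cyp4a12 pair differs most within one exon are shown, with the 4 differing bases in capitals. They lie upstream of the transcript ends searched above, so they show how alike the coding sequences are, not how the reads were divided.
Cyp4a12a (chr4:115326723-115326782, + strand): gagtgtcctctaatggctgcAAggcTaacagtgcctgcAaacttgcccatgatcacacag
Cyp4a12b (chr4:115432976-115433035, + strand): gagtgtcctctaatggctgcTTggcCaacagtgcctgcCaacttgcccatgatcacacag

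**Figure D1:**
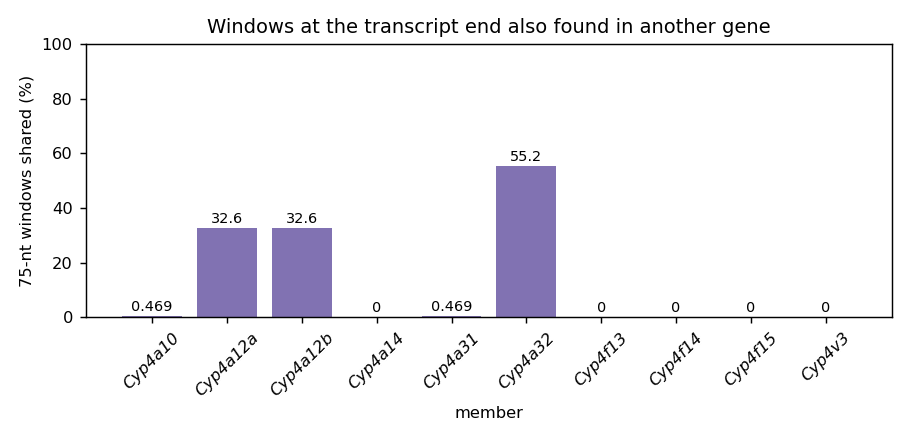
Bars give the percentage of 75-nt windows in the last 500 nt of each member's transcript that also occur in a transcript of another gene. Cyp4a12a and Cyp4a12b stand at 32.6% and Cyp4a32 at 55.2%, and the other members at 0 to 0.469%. The annotated transcript of Cyp4a32 stops short of the gene end in the deposited table, and the annotated Cyp4v3 gene runs past it.

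The 6 libraries held 9538741 to 11105408 counts, and 3 counts, taken as the lowest number that can be relied on, corresponded to 0.270 to 0.315 CPM, the count after scaling every library to one total. This limit covers counting error alone. Counts were scaled by the TMM method to CPM, and the 2 groups were set against each other in edgeR's quasi-likelihood test. P-values were adjusted by the Benjamini-Hochberg method over the 11657 genes that had enough counts, with 0.05 as the threshold. Albumin, Apoa1, Ttr and Serpina1a, secreted products of hepatocytes, were abundant in all libraries. Other hepatocyte markers had few counts, with 3 to 13 for the periportal urea cycle enzyme Ass1, 18 to 33 for Cps1 and 5 to 43 for Tat. Of 12 hepatocyte markers, 11 could be tested and 9 fell after IL-1β, a share of 81.8% beside 6.44% of all tested genes. The summed level of the 12 markers was 22640 to 22980 CPM in the control samples and 18300 to 19250 CPM in the IL-1β samples. In bulk RNA, fewer cells of a type and less RNA per cell cannot be told apart, and the part of this shift in the results below was not tested.

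Of the 7 members that could be tested, 2 fell after IL-1β, Cyp4a12a and Cyp4f14, and 0 rose. By comparison, 13.4% of all tested genes were called in either direction, 6.44% as lower and 6.97% as higher. The log2 fold change was below 0 in all 7 tested members, with a median of -0.45 against -0.0018 over all tested genes. At an unadjusted p below 0.05 in edgeR, 3 members were lower and 0 higher, and DESeq2 and limma each called 2 lower and 0 higher. In 5 of the 7, Cyp4a10, Cyp4a12a, Cyp4a12b, Cyp4f14 and Cyp4v3, all IL-1β samples lay below all controls, a pattern found in 14.2% of all tested genes. Cyp4a31, Cyp4a32 and Cyp4f15 had too few counts to test.

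**Figure D2:**
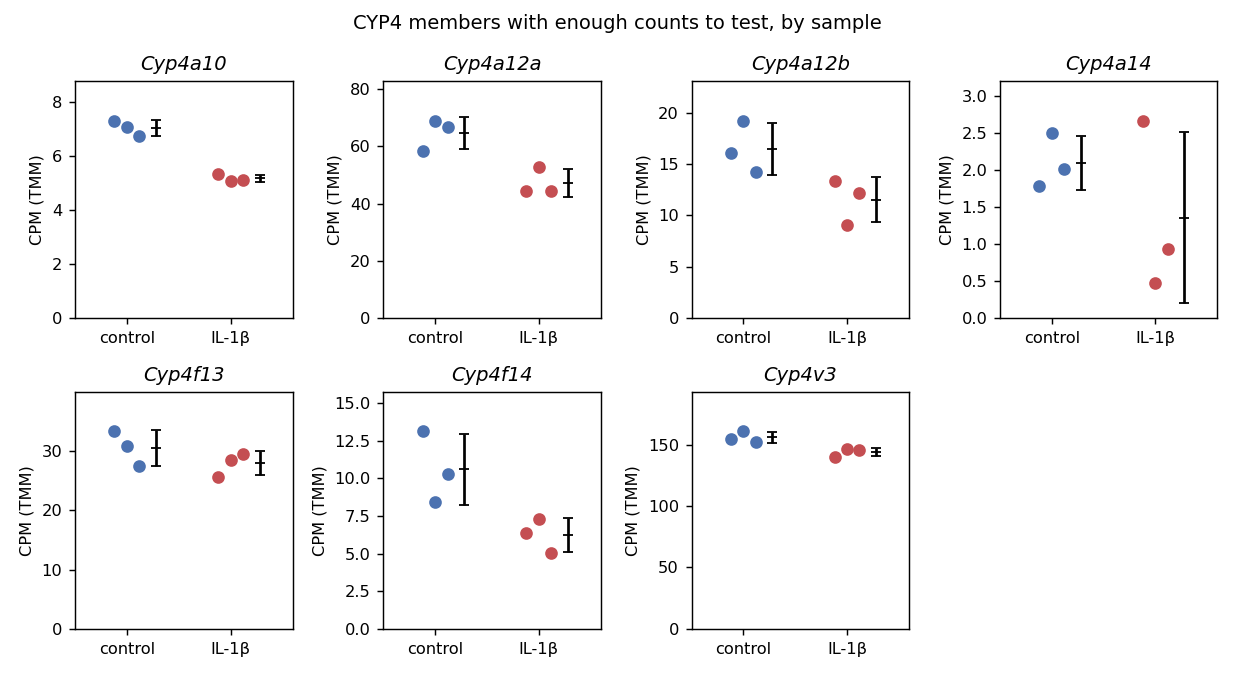
Each panel shows the TMM-scaled CPM of 1 tested member in the 3 control (blue) and 3 IL-1β (red) samples, in replicate order, with the mean and SD in black and the y axis starting at 0. The groups do not overlap in Cyp4a10, Cyp4a12a, Cyp4a12b, Cyp4f14 and Cyp4v3, and they overlap in Cyp4a14 and Cyp4f13.

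Cyp4a12a, the male-biased arachidonic acid hydroxylase, had 58.2, 68.9 and 66.8 CPM in the control samples and 44.4, 52.9 and 44.3 CPM after IL-1β. The 3 IL-1β samples lay below the lowest control, with IL-1β replicate 2 the closest to it. The mean was 64.7 ± 5.70 CPM (SD, n = 3) in control and 47.2 ± 4.92 CPM (SD, n = 3) after IL-1β. Cyp4a12a fell by 0.45 on the log2 scale (SE 0.10, 95% interval -0.66 to -0.25, adjusted p = 0.00226 from edgeR), which is 27.0% lower. The call held with each sample left out in turn, at adjusted p between 0.000147 and 0.0288 in edgeR. An unmoderated test on log2(CPM + 1), which takes the spread from each gene's 6 values alone, gave an adjusted p of 0.138 where edgeR called the gene.

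Cyp4a12b, the near-identical neighbour, had 16.1, 19.2 and 14.2 CPM in control and 13.4, 9.12 and 12.2 CPM after IL-1β. The highest IL-1β sample lay just under the lowest control. Its log2 fold change was -0.52 (SE 0.18, 95% interval -0.88 to -0.15), and the adjusted p of 0.0526 in edgeR missed the threshold. It passed, at 0.0246 to 0.0386, with total-count or upper-quartile scaling or without the filter on low counts, and also without control replicate 1 (0.0488) or control replicate 3 (0.0333). It did not pass in the other leave-out fits, with -0.39 (adjusted p = 0.262 from edgeR) when control replicate 2 was omitted and -0.37 (adjusted p = 0.267) for IL-1β replicate 2, nor in limma (0.0582), DESeq2 (0.0725) or the unmoderated test (0.28).

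Because reads may pass between the copies, both genes were also summed in each sample, as a description with no test. The sum was 74.2, 88.2 and 81.0 CPM in control and 57.8, 62.0 and 56.5 CPM after IL-1β, so that no IL-1β sample reached a control. The mean sum was 81.1 ± 6.97 CPM (SD, n = 3) in control and 58.7 ± 2.89 CPM (SD, n = 3) after IL-1β, 27.6% lower. Cyp4a12b took 21.6%, 21.8% and 17.5% of the pair's counts in control and 23.1%, 14.7% and 21.5% after IL-1β. These shares overlapped between the groups, with both the highest and the lowest in IL-1β samples.

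Cyp4a10, an inducible omega-hydroxylase and PPARα target, had 7.32, 7.06 and 6.74 CPM in control and 5.34, 5.09 and 5.11 CPM after IL-1β. The groups were narrow and apart, at 7.04 ± 0.289 and 5.18 ± 0.141 CPM (SD, n = 3 each). The log2 fold change was -0.44 (SE 0.24, 95% interval -0.93 to 0.05), with an adjusted p of 0.273 in edgeR. The spread between replicates was smaller than the 0.816 CPM in control and 0.713 CPM after IL-1β that counting error alone gives at these counts. The unmoderated test gave an adjusted p of 0.0217, and edgeR, limma and DESeq2 did not call the gene.

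Cyp4a14, the other inducible PPARα target of the 4A cluster, rested on few counts, with 19, 28 and 20 in control and 25, 5 and 10 after IL-1β. Scaled to library size these were 1.78, 2.50 and 2.01 CPM in control and 2.67, 0.480 and 0.929 CPM after IL-1β. IL-1β replicate 1 was the highest of all 6 samples and the other IL-1β samples were the lowest. The log2 fold change was -0.65 (SE 0.51, 95% interval -1.71 to 0.41, adjusted p = 0.505 from edgeR), and it turned on single IL-1β samples. With IL-1β replicate 1 left out it was -1.55, with replicate 2 left out -0.24 and with replicate 3 left out -0.44 (adjusted p = 0.120, 0.862 and 0.771 from edgeR).

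Cyp4a31 and Cyp4a32, the close copies of Cyp4a10, were at the limit of detection. Cyp4a31 had 0, 0 and 1 counts in control and 1, 0 and 1 after IL-1β, and Cyp4a32 had 0, 3 and 1 in control and 0, 1 and 2 after IL-1β. A difference between the groups was not detectable at this depth. Summed over all 6 Cyp4a genes, of which the Cyp4a12 pair gave most counts, the level was 90.4 ± 7.34 CPM (SD, n = 3) in control and 65.4 ± 2.47 CPM (SD, n = 3) after IL-1β, again 27.6% lower.

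Among the leukotriene-hydroxylating CYP4F genes, Cyp4f14 had 13.1, 8.41 and 10.3 CPM in control and 6.41, 7.29 and 5.02 CPM after IL-1β. The highest IL-1β sample, replicate 2, lay below the lowest control, also replicate 2. From 10.6 ± 2.39 to 6.24 ± 1.15 CPM (SD, n = 3 each), Cyp4f14 fell by 0.77 on the log2 scale (SE 0.23, 95% interval -1.23 to -0.30, adjusted p = 0.0238 from edgeR), which is 41.2% lower. With 5 samples the call was lost in 3 of 6 fits, in which edgeR gave a log2 fold change of -0.58 (adjusted p = 0.122) when control replicate 1 was left out, -0.78 (adjusted p = 0.0662) for IL-1β replicate 1 and -0.62 (adjusted p = 0.140) for IL-1β replicate 3. The unmoderated test gave an adjusted p of 0.208, whereas DESeq2 (0.0243) and limma (0.0237) kept the call.

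Cyp4f13, a neighbouring CYP4F gene, had 33.3, 30.8 and 27.4 CPM in control and 25.6, 28.5 and 29.5 CPM after IL-1β. The groups overlapped, since 2 IL-1β samples lay above the lowest control. The log2 fold change was -0.13 (SE 0.12, 95% interval -0.37 to 0.12, adjusted p = 0.588 from edgeR), an interval that lies wholly above the fitted value of Cyp4f14. The interval of Cyp4f14 reaches up to -0.30, so the intervals of these genes overlap. The difference between Cyp4f13 and Cyp4f14 was not itself tested. Cyp4f15 had 0, 0 and 1 counts in control and 0, 1 and 6 after IL-1β, with only IL-1β replicate 3 above 3 counts.

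Cyp4v3, the hydroxylase related to human CYP4V2, had 154, 161 and 152 CPM in control and 140, 147 and 145 CPM after IL-1β. Every IL-1β sample was below every control, by a narrow margin. The means were 156 ± 4.43 and 144 ± 3.35 CPM (SD, n = 3 each), and the log2 fold change of -0.11 (SE 0.07, 95% interval -0.26 to 0.03) had an adjusted p of 0.352 in edgeR. The interval leaves room for a decrease of 0.26 on the log2 scale but not for one as large as the fitted value of Cyp4a12a. The interval of Cyp4a12a reaches up to -0.25, so both intervals overlap narrowly. The difference between Cyp4v3 and Cyp4a12a was not itself tested.

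**Figure D3:**
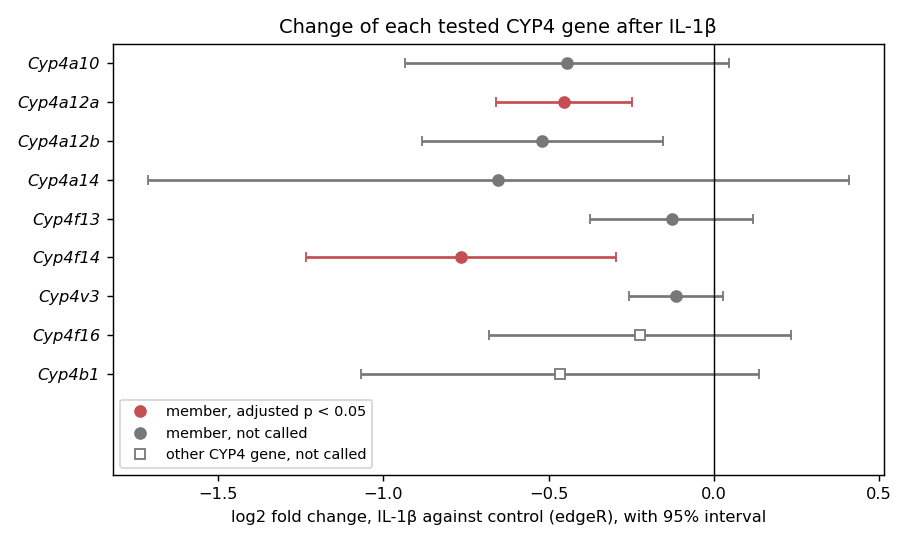
Points give the log2 fold change of IL-1β against control from edgeR for the 7 tested members (circles) and 2 other CYP4 genes (open squares), and bars the 95% interval. Only Cyp4a12a and Cyp4f14 (red) passed an adjusted p of 0.05, and the interval of Cyp4a14 is the widest, from -1.71 to 0.41.

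Of the 10 other CYP4 genes looked at, 2 had enough counts to test. Cyp4b1, a CYP4 enzyme of broad substrate range, was at 5.40 ± 1.30 CPM in control and 3.91 ± 0.615 CPM after IL-1β (SD, n = 3 each), with a log2 fold change of -0.47 and an adjusted p of 0.368 in edgeR. Cyp4f16 was at 8.65 ± 1.92 and 7.41 ± 0.370 CPM, with a log2 fold change of -0.22 (adjusted p = 0.618 from edgeR). Neither passed at an unadjusted p below 0.05 in edgeR, nor in DESeq2 or limma. Cyp4f17 and Cyp4f37 had at most 10 and 8 counts in a library, Cyp4f18, Cyp4f39 and Cyp4f40 at most 2, and Cyp4a29, Cyp4a30b and Cyp4x1 had 0 in every library. The pseudogenes Cyp4b1-ps2 and Cyp4f41-ps had at most 9 and 4 counts, and Cyp4x1os, a transcript opposite Cyp4x1, had 0.

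P450 enzymes of the endoplasmic reticulum take electrons from NADPH through P450 reductase (Por) and cytochrome b5. Por had 249, 216 and 216 CPM in control and 238, 213 and 219 CPM after IL-1β, so the groups overlapped (log2 fold change -0.02, adjusted p = 0.909 from edgeR). Overlap was also seen in the cytochrome b5 gene Cyb5a (log2 fold change 0.07, adjusted p = 0.623 from edgeR). Of 8 tested electron donors, 1 fell (12.5%) and 2 rose (25%), beside 6.44% and 6.97% of all tested genes. Cyb5r3, the reductase of cytochrome b5, fell by 0.48 (adjusted p = 0.000255 from edgeR), while its relative Cyb5r1 rose by 0.33 (adjusted p = 0.0161) and Cyb5b, the mitochondrial form of cytochrome b5, rose by 0.25 (adjusted p = 0.0249) on the log2 scale. Pgrmc1, a heme protein that binds P450s, was not called, with a log2 fold change of -0.13 and an adjusted p of 0.192 in edgeR.

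The receptor Ppara itself had 19.2, 22.2 and 23.2 CPM in control and 28.6, 23.6 and 22.1 CPM after IL-1β. The groups overlapped, with a log2 fold change of 0.20 (adjusted p = 0.417 from edgeR), and that of its partner Rxra was -0.01 (adjusted p = 0.955). Of 17 tested genes for PPARα, related receptors, partners and coregulators, 4 fell and 0 rose, with a median log2 fold change of -0.01. The share that fell, 23.5%, compares with 6.44% of all tested genes. At an unadjusted p below 0.05 in edgeR 1 was higher, and 0 were higher by DESeq2 or limma. Creb3l3, a membrane-bound factor that acts with PPARα in fasting, fell by 3.23 on the log2 scale (adjusted p = 6.1e-12 from edgeR). The hepatocyte factor Hnf4a fell by 1.04 (adjusted p = 1.6e-09) and Pparg by 1.28 (adjusted p = 0.00176), both from edgeR on the log2 scale.

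Among 27 tested PPARα target genes outside the CYP4 family, 4 fell and 2 rose, with a median log2 fold change of -0.22. Cpt1a, the gate of mitochondrial fatty acid uptake, fell by 0.79 (adjusted p = 7.4e-06), the lipid droplet protein Plin2 by 0.46 (adjusted p = 3.5e-06) and the acyl-CoA thioesterase Acot2 by 0.42 (adjusted p = 0.000757), in edgeR on the log2 scale. Angptl4, a secreted inhibitor of lipoprotein lipase, rose by 0.49 (adjusted p = 0.00135 from edgeR). The share that fell, 14.8%, compares with 6.44% of all tested genes, and the share that rose, 7.41%, with 6.97%.

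The products of CYP4 enzymes pass through alcohol and aldehyde dehydrogenases and then to peroxisomes, and of 22 tested genes of this route 9 fell and 0 rose. The share of genes that fell, 40.9%, compares with 6.44% of all tested genes, and the median log2 fold change was -0.26. Adh1, which oxidizes omega-hydroxy fatty acids among other alcohols, had 163, 149 and 139 CPM in control and 41.4, 38.9 and 46.9 CPM after IL-1β, far below every control. Adh1 fell by 1.83 on the log2 scale (SE 0.09, adjusted p = 5.6e-14 from edgeR). Aldh3a2, the fatty aldehyde dehydrogenase of the next step, fell by 0.68 (adjusted p = 0.00129), the peroxisomal thiolase Acaa1b by 1.26 (adjusted p = 2.9e-08) and the peroxisomal carnitine octanoyltransferase Crot by 0.54 (adjusted p = 0.000833) in edgeR. No gene of this route was higher at an unadjusted p below 0.05 in edgeR, nor by DESeq2 or limma.

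CYP4F substrates and the competing routes of arachidonic acid were followed in a list of eicosanoid enzymes, where 5 of 11 tested genes fell and 0 rose, the 0 holding at an unadjusted p below 0.05 in edgeR and by DESeq2 and limma. The share that fell was 45.5%, beside 6.44% of all tested genes, and the median log2 fold change was -0.27. Cyp2j5, an arachidonic acid epoxygenase, fell by 1.01 (adjusted p = 4.8e-07), the epoxide hydrolase Ephx1 by 0.41 (adjusted p = 0.000448), and the epoxygenases Cyp2c44 by 0.36 (adjusted p = 0.0076) and Cyp2c50 by 0.50 (adjusted p = 0.0167) on the log2 scale in edgeR. Alox5 and Alox15, which start leukotriene and lipoxin synthesis in leukocytes, had 0 counts in every library.

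Of 17 tested genes of the growth hormone axis and male-biased liver genes, to which the Cyp4a12 genes are usually counted, 7 fell and 2 rose. These shares, 41.2% and 11.8%, compare with 6.44% and 6.97% of all tested genes, and the median log2 fold change was -0.21. The major urinary protein genes Mup7, Mup20 and Mup3 fell by 0.47, 0.32 and 0.31 on the log2 scale (adjusted p = 2.2e-06, 0.000247 and 0.000307 from edgeR). Mup genes are near-identical copies, so the division of their reads is uncertain and their calls may not be separate. Cyp7b1, a male-biased hydroxylase of oxysterols, went the other way and rose by 0.84 (adjusted p = 2.3e-06 from edgeR).

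**Figure D4:**
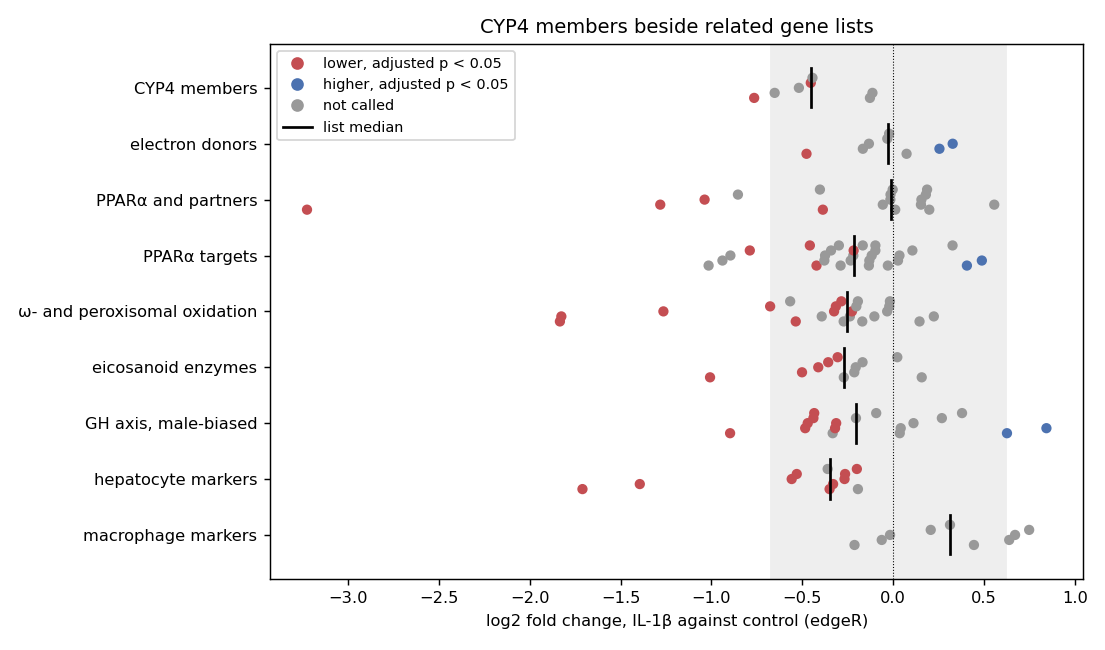
Each point is the log2 fold change of 1 tested gene (edgeR), grouped by list, with red for genes called lower, blue for genes called higher, grey for genes not called and a black bar at the list median. The grey band holds the 5th to 95th percentile of all tested genes, -0.67 to 0.62, and the members' median is -0.45 and that of hepatocyte markers -0.35.

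Markers of other cells were read beside these values. Of 9 tested Kupffer cell and macrophage markers 0 were called in edgeR, DESeq2 or limma (2 were higher at an unadjusted p below 0.05 in edgeR). The listed markers summed to 238 to 272 CPM in control and 243 to 275 CPM after IL-1β, with Cd68, Ctss, Cd5l and Marco the most abundant. Cd68 alone was at 172 to 204 CPM in control and 175 to 198 CPM after IL-1β, so it gave most of this sum. The Kupffer cell markers Clec4f, Timd4 and Vsig4 had too few counts to test. Endothelial markers summed to 78.0 to 86.2 CPM in control and 77.7 to 84.9 CPM after IL-1β. Of 8, 2 were lower (25%) and 1 higher (12.5%), beside 6.44% and 6.97% of all tested genes. Stellate cell markers summed to 21.2 to 24.2 and 22 to 27.6 CPM. For cholangiocytes the sums were 316 to 329 and 236 to 239 CPM, and the defining marker Krt19 was near 0. Spp1 fell from 190 to 82.7 CPM in the group means, while Sox9 was at 134 CPM in control and 154 CPM after IL-1β, not called by edgeR (adjusted p = 0.0518), and 1 marker of this list was called higher by DESeq2 and by limma. The neutrophil genes S100a9, Mpo, Elane and Retnlg were at 0 in every library, while S100a8 had 0 counts in the controls and 3.41 ± 1.35 CPM after IL-1β (SD, n = 3).

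The genes whose 6 values were most like those of a member were sought among 7966 tested genes of at least 10 CPM, by the root mean square difference of log2(CPM + 1) values centred on the control mean. For Cyp4a12a these included the major urinary protein genes Mup7 (0.0627) and Mup9 (0.0672). For Cyp4f13 they were Mettl9 (0.034), Ankrd13b (0.0379) and 2610005L07Rik (0.038), and for Cyp4v3 Lmbrd2 (0.0202), Parp3 (0.0249) and Ctr9 (0.0258). Each likeness rests on 6 samples of one comparison, in which many genes share the same step between the groups.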

How the data were processed

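The authors aligned the reads with Bowtie2 (builds mm10 and GRCm38 per the labels); the counting tool is not given in the sources used here. They deposited raw counts per gene, which were used, beside log2 normalized values, group averages, a fold change and a p-value of their own, which were not. Fits used edgeR 4.0.16 in R 4.3.3 (filterByExpr, TMM, quasi-likelihood test, Benjamini-Hochberg over all 11657 genes kept), after a check on simulated counts. Alternatives were DESeq2 1.42.0, limma 3.58.1 and Student's unmoderated test, both on log2(CPM + 1), upper-quartile and total-count scaling, other filters and thresholds, a replicate block, and leaving out each sample. Sequences came from the GRCm38 genome and GENCODE models (Python 3.11.15). Members and lists were chosen with earlier results of these data known. Besides all CYP4 genes, the text names at most 4 tested genes per pathway list with the smallest adjusted p, the 4 most abundant markers per cell type, and the 3 genes most like 1 member of each subfamily; a few genes that this rule selects are left out of the text. Ppara, Rxra, Por, Cyb5a, Ass1, Cps1, Tat and marker genes at or near 0 were added after their values were seen, as were Alox5 and Alox15. P-values measure only the spread between these samples, which may be technical. The design text gives 2 samples for each group while listing 3; all 6 entered. Replicates differed beyond sampling noise (chi-square per degree of freedom 4.05 to 9.52). An exact two-sided permutation test of 3 against 3 cannot go below 0.1.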

Additional observations from a re-analysis of the deposited data

How the results depend on the processing

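Each of the 7 tested members kept a log2 fold change below 0 in every fit that included it (a minimum of 10 counts in every sample left out Cyp4a14), and Cyp4a12a was called in 6 of 6 fits that leave out a sample and in 7 of 8 others. Among the tested members, counting error exceeded the replicate SD in both groups of Cyp4a10, in the Cyp4a14 controls and in Cyp4v3 after IL-1β. It was 0.446 against an SD of 0.368 CPM in the Cyp4a14 controls and 3.76 against 3.35 CPM in Cyp4v3 after IL-1β. In Cyp4a14 after IL-1β the SD of 1.16 CPM exceeded the counting error of 0.358 CPM. Members lower numbered 2 and came to 1 under the unmoderated test (Cyp4a10), with an adjusted p below 0.01 or with a fold over 1.5 as well, to 3, with Cyp4a12b added, under total-count or upper-quartile scaling or with no filter, and to 1 to 3 with a sample left out. The genes called over the whole table came to 547 under the unmoderated test, 996 at 0.01 and 769 with the fold, from 1563. Under the unmoderated test the lists had 0 electron donors lower and 0 higher, 2 PPARα partners lower, 0 PPARα targets higher, 2 genes of the omega and peroxisomal route lower, 0 eicosanoid genes lower, and 3 growth hormone and male-biased genes lower with 0 higher. At 0.01 these were 0 electron donors higher, 1 PPARα target higher, 3 eicosanoid genes lower and 1 growth hormone or male-biased gene higher. With the fold there were 0 electron donors lower and 0 higher, 1 PPARα target lower and 0 higher, 4 route genes lower, 1 eicosanoid gene lower and 1 growth hormone or male-biased gene lower. Total counts gave 1 electron donor higher, 7 PPARα targets lower and 1 growth hormone or male-biased gene higher. With each sample left out, electron donors higher ran from 0 to 2, PPARα partners higher from 0 to 1, PPARα targets higher from 1 to 2, eicosanoid genes lower from 3 to 5 and growth hormone or male-biased genes higher from 1 to 2. Values near 0 changed sign: the Eng log2 fold change (0.02) was -0.013 and -0.0387 under upper-quartile and total-count scaling and ran from -0.0479 to 0.1192 with a sample left out, and the Ctss log2 fold change (-0.02) from -0.0774 to 0.0222. Beyond the smaller numbers of the stricter thresholds, the cause was not tested. The replicate numbers share no stated origin, and deviations of same-numbered samples correlated by 0.147, 0.0748 and -0.0457. With a replicate block, 1671 genes and 2 members were called, and the adjusted p in edgeR was 0.0008 for Cyp4a12a, 0.0225 for Cyp4f14 and 0.0522 for Cyp4a12b.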
